A study of Mus musculus with 6 samples.

Results

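The hormone, granin and amine genes of the gastric endocrine cells were followed across Lasp1 knockout and wild type stomachs. The set held 10 genes: the hormones gastrin (Gast), ghrelin (Ghrl), somatostatin (Sst) and cholecystokinin (Cck), the granins Chga and Chgb, the prohormone convertase Pcsk1, and Hdc, Slc18a2 and Tph1, which make and store histamine and serotonin. All probes carrying one of these symbols in the platform annotation were taken, giving 15 of 45281 probes and 10 of 19057 named genes. The rule uses symbols and no measured value, but the genes were listed with earlier results of these data known. Total RNA came from the fundic gastric mucosa of C57Bl/6Ncr mice aged 3 months, from 3 Lasp1 knockout samples and 3 wild type samples, each on its own Illumina array. Lasp1 encodes an actin-binding protein that is abundant in acid-secreting parietal cells. The knockout allele and the sex of the mice are not described in the labels. Nothing there says whether the 6 samples were 6 animals, so the spread behind each p-value may be partly or wholly technical.

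Gastric endocrine cells are scattered single cells of the glands. Gastrin from the G cells of the antrum acts on the enterochromaffin-like cells of the fundus, which release histamine onto parietal cells. Somatostatin from D cells restrains this axis, and ghrelin from the X/A-like cells of the fundus acts on appetite and growth hormone release. Histidine decarboxylase makes histamine, the vesicular monoamine transporter loads it into granules, and granins and convertases build and process the granule contents.

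Each array had a median intensity of 1000 in the deposited values, and 35.8% to 48.5% of its probes lay above its brightest Y-linked probe. That probe (1020 to 1212 on the 6 arrays) is used below as the background level, because Xist was bright on all arrays (55746 to 88070) which marks every sample as female. With 3 arrays a genotype precision is low, and in whole mucosa fewer cells of a type and less RNA per cell cannot be told apart. Defining markers of the fundic glands were far above background in all samples. Atp4a, the proton pump of parietal cells, read 443047 to 539091 on knockout arrays and 438485 to 513259 on wild type arrays. Pgc, the pepsinogen C of chief cells, read 536572 to 584305 and 499744 to 613674 in the same order of groups. Some arrays held other tissue. Cpa1, a pancreatic carboxypeptidase, read 6865 on knockout replicate 3 and 449183 on wild type replicate 3, and at most 993 elsewhere. Lor, a squamous cornified envelope protein, read 399114 on knockout replicate 1 and 274920 on wild type replicate 2, and at most 10048 elsewhere. Myh11, the smooth muscle myosin, read 23458 on knockout replicate 1 and no more than 5590 on any other array. Lasp1 itself, by its brightest probe, read 96449 ± 12620 in knockout and 241114 ± 55289 in wild type mucosa (mean ± SD, n = 3 each), with all knockout arrays lower (limma log2 difference -1.30, SE 0.21, unadjusted p = 0.000412, adjusted p = 0.994). The Lasp1 probe ILMN_2879745 gave a log2 difference of -1.59 (SE 0.34), also with all knockout arrays lower. The dim Lasp1 probe ILMN_2596851, above background on 1 wild type array only, gave -0.21 (SE 0.19) with overlapping groups. Whether the Lasp1 probes lie in the deleted part of the gene is not given in the sources used here.

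None of the gastric hormone or amine genes passed the test between the genotypes, and every one of them had overlapping groups. Of the 15 probes, 12 probes of 8 genes were bright enough to be tested. The test was limma on log2 intensities over the 22640 probes above the median brightness, with a Benjamini-Hochberg adjusted p under 0.05. None of the 12 was called, where 0.00883% of all tested probes were (2 probes, both higher in the knockout). None had an unadjusted p under 0.05, where 1.73% of all tested probes did (1.63% higher and 0.106% lower). None had groups that did not overlap, where 7.19% of tested probes did (6.17% higher and 1.02% lower). The smallest unadjusted p was 0.0966, for Hdc, and the adjusted p-values by limma were all 0.994 or more. Of the 12 probes 5 were higher and 7 lower in the knockout by sign alone, whereas 76.9% of all tested probes were higher and 23.1% lower. After quantile normalization 4 were higher and 8 lower, against 51.2% of all tested probes higher. By the brightest probe of each gene, 4 of the 8 tested genes were higher and 4 lower, and 3 were higher after quantile normalization. The median log2 difference of the 12 was -0.0087, and that of all tested probes was 0.10 in the deposited scaling and 0.0036 after quantile normalization.

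**Figure D1:**
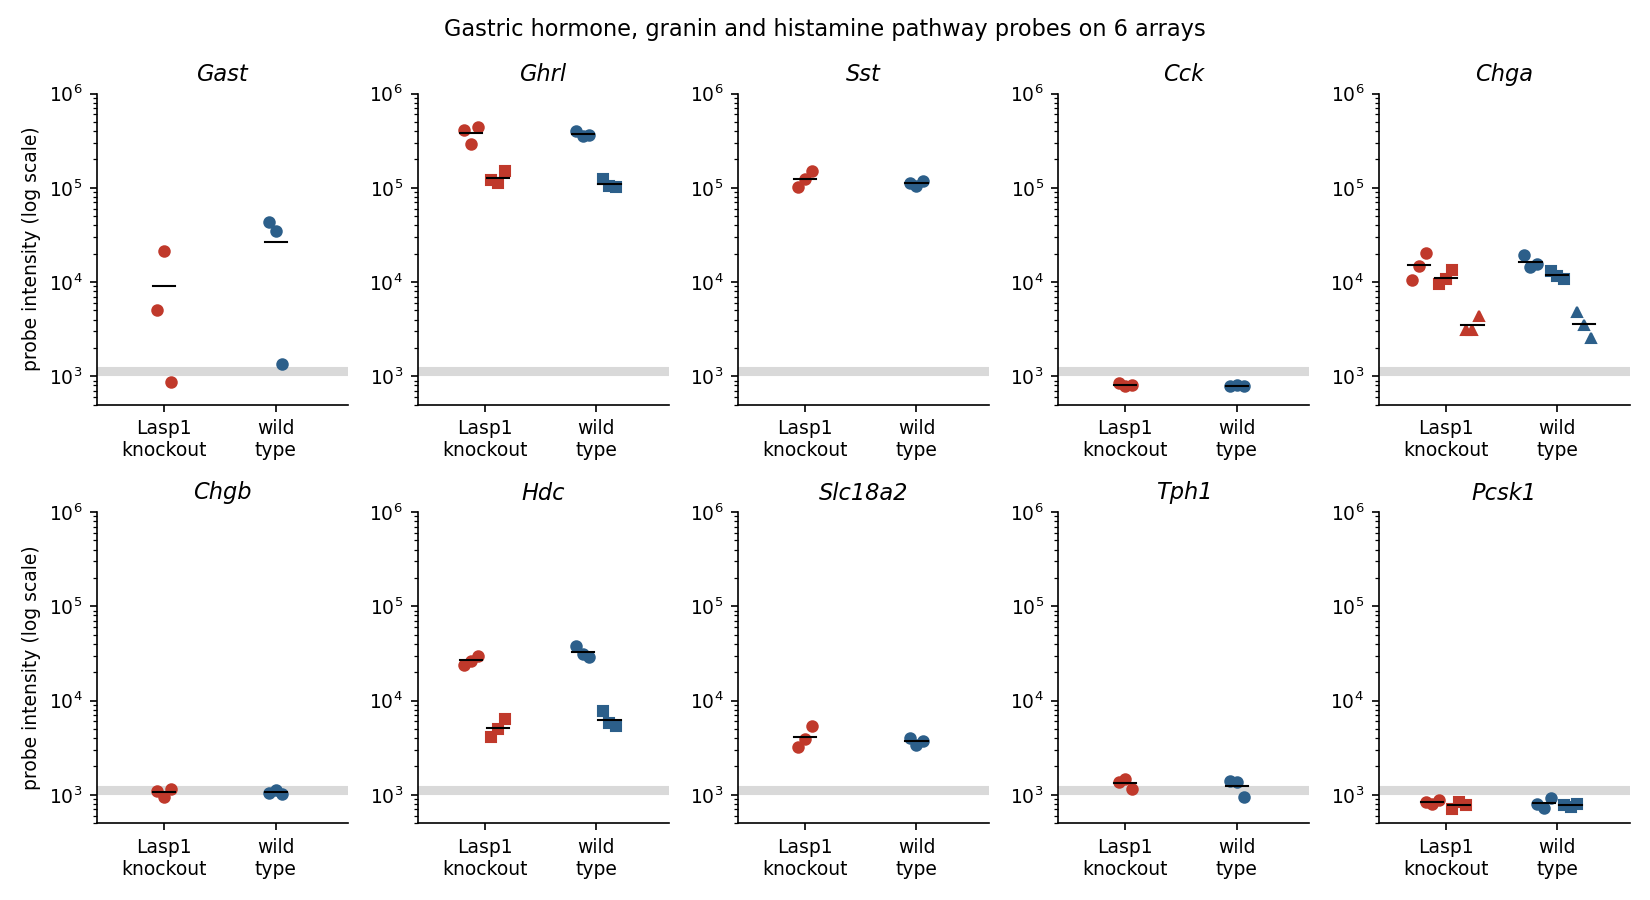
Probe intensity on a log axis in Lasp1 knockout (red, left) and wild type (blue, right) mucosa, 3 arrays each. Marker shapes are different probes of a gene, black bars are group means, and the grey band is the range of the brightest Y-linked probe over the 6 arrays. Gast spans 861 to 43741, while Ghrl, Sst, Chga, Hdc and Slc18a2 stay well above the band on all arrays and Cck and Pcsk1 lie below it.

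Gastrin was the member that varied most, and its variation ran across both genotypes. Gast lies on chromosome 11, as Lasp1 does, with 110 protein-coding genes between them. Its probe (ILMN_1241636) read 5003, 21207 and 861 on knockout replicates 1 to 3, and 43741, 35100 and 1354 on wild type replicates 1 to 3. Wild type replicates 1 and 2 were the highest, and replicate 3 was the lowest array of each genotype, below the background level in the knockout and just above it in the wild type. The means were 9024 ± 10753 in knockout and 26732 ± 22399 in wild type mucosa (SD, n = 3 each). The log2 difference was -1.50 (SE 1.60, 95% interval -5.31 to 2.30, limma adjusted p = 0.994, exact two-sided permutation p = 0.5, where 3 against 3 arrays cannot go below 0.1). The SD of Gast over the 6 log2 values was 2.44, larger than that of 99.7% of tested probes, whose median SD was 0.21. Among the arrays numbered 1 to 3 in their titles (knockout replicate 1 and wild type replicates 1 and 2) the difference was -2.97, and among those numbered 4 to 6 it had the other sign, 1.66, each resting on 1 array of one genotype. The labels do not say what the title number means. The pooled value also depended on single arrays: it was -3.12 without wild type replicate 3 and -0.31 without knockout replicate 3. Leaving out both arrays with pancreatic transcripts, which were the arrays of lowest Gast, gave -1.93 (unadjusted p = 0.0231, limma adjusted p = 1, with 1.08% of all tested probes under an unadjusted p of 0.05 in that fit).

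Gastrin is made mainly in the antrum, and 4 other antral markers were read beside it as a measure of antral mucosa in the fundic samples. Nkx6-3, a homeobox factor of antral endocrine and gland cells, read 6458, 5936 and 1423 on knockout replicates 1 to 3, and 7678, 5714 and 1518 on wild type replicates 1 to 3. Pdx1, the homeobox factor of antrum, duodenum and pancreas, read 2683, 3447 and 1755 on the knockout arrays and 2870, 2821 and 1462 on the wild type arrays. Replicate 3 of each genotype was thus lowest for Nkx6-3 and Pdx1 as it was for Gast. It was also lowest for Aqp5, a water channel of pyloric glands (2013 in the knockout and 1486 in the wild type, 3009 to 4870 elsewhere), and for Lgr5, a stem cell receptor of antral gland bases (2408 and 2070, 2574 to 3073 elsewhere). Knockout replicate 1 broke the parallel: its Nkx6-3 and Aqp5 were as high as on the other arrays with antral signal, with Gast at 5003. The summed intensity of the 4 markers was 16820, 15380 and 7599 on the knockout arrays and 17491, 14117 and 6536 on the wild type arrays. None of the 4 passed the test, 3 of 4 were higher in the knockout by sign (2 of 4 after quantile normalization), and their median log2 difference was 0.12. Single arrays turned this: the median was -0.15 with none of the 4 higher without wild type replicate 3, and 0.51 with 4 of 4 higher without knockout replicate 3. A low replicate 3 was not confined to antral markers. Of the parietal markers, Kcne2 read 11971 on knockout replicate 3 and 11588 on wild type replicate 3, against 16502 to 25486 elsewhere. Esrrg, singled out after its values were seen, was also lowest on replicate 3 of each genotype. Atp4a, Atp4b, Slc26a7 and Aqp4 were not lowest there in both genotypes. What part of the spread of Gast follows antral content was not tested.

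**Figure D2:**
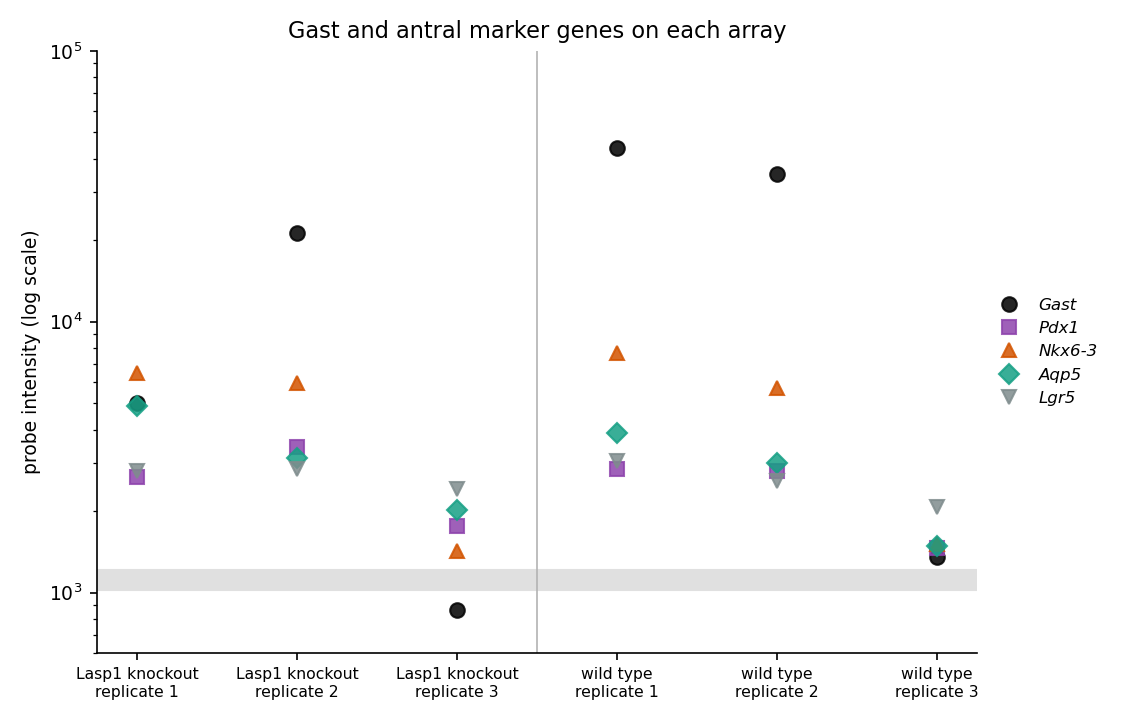
Intensity (log axis) of Gast and of the antral markers Pdx1, Nkx6-3, Aqp5 and Lgr5 on each array, Lasp1 knockout left and wild type right, with the range of the brightest Y-linked probe in grey. Replicate 3 of each genotype is lowest for all 5 genes, and knockout replicate 1 has Gast at 5003 beside Nkx6-3 at 6458.

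Of 10 duodenal markers 6 were below background on every array, among them Fabp1 and Fabp2, the fatty acid-binding proteins of enterocytes. Apoa1, Apoa4 and Rbp2 were above background on all arrays and Alpi on 2 of each genotype. Rbp2, a retinol-binding protein of enterocytes, read 16047, 8011 and 6923 on the knockout arrays and 13252, 13538 and 2544 on the wild type arrays, lowest on replicate 3 of each genotype as for Gast. Apoa1, an apolipoprotein, read 307784 to 365867 on the knockout and 260985 to 299213 on the wild type arrays, groups that did not overlap (log2 difference 0.29, SE 0.13, limma adjusted p = 0.994). Over all tested probes 6.17% were higher with groups that did not overlap. Cck, made by I cells of the duodenum, stayed below background on all 6 arrays, at 845, 786 and 801 in the knockout and 780, 801 and 795 in the wild type. It was not tested, and no fold is given.

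Ghrelin and somatostatin were among the bright genes of these arrays, and their spread was ordinary: the SD of the brighter Ghrl probe and of Sst exceeded that of 47.7% and 47.0% of tested probes. Ghrl was read by 2 probes. ILMN_2643658 read 407511, 294242 and 444495 on the knockout arrays and 397516, 353500 and 359304 on the wild type arrays. Knockout replicates 3 and 2 were the highest and lowest of all, so the wild type values fell inside the knockout range. Its log2 difference was 0.026 (SE 0.18, 95% interval -0.39 to 0.45, limma adjusted p = 0.995). ILMN_2598022 read 119476, 113324 and 149418 on the knockout arrays and 123085, 104541 and 102570 on the wild type arrays, a log2 difference of 0.21 (SE 0.15, 95% interval -0.16 to 0.57, limma adjusted p = 0.994). Mboat4, the acyltransferase that activates ghrelin, read 1291, 1402 and 1558 in the knockout and 1409, 1244 and 1412 in the wild type (log2 0.062). It was singled out after its values were seen.

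Sst (ILMN_2729826, chromosome 16) read 101844, 122439 and 150913 on the knockout arrays and 112710, 104261 and 119406 on the wild type arrays. Knockout replicate 1 was the lowest and knockout replicate 3 the highest of the 6, with the wild type arrays between them. The log2 difference was 0.14 (SE 0.17, 95% interval -0.26 to 0.54, limma adjusted p = 0.994), and it was -0.0037 without knockout replicate 3. Islet cells of the pancreas also make somatostatin and ghrelin, and 2 arrays carried pancreatic transcripts. Ins2, the insulin of beta cells, read 769 on knockout replicate 3 and 8941 on wild type replicate 3, and at most 863 elsewhere. Gcg, preproglucagon, read 4424, 3410 and 8644 on the knockout arrays and 4724, 3707 and 6716 on the wild type arrays, highest on the same pair. Of the 8 islet markers with a probe, 4 were below background on every array. Without that pair of arrays the log2 difference of Sst was 0.043, and those of the Ghrl probes ILMN_2643658 and ILMN_2598022 were -0.11 and 0.037.

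The granins, acidic proteins of the endocrine granule, also had overlapping groups. Chromogranin A, read by 3 probes, was above background on all arrays. Its brightest probe, ILMN_2814927, read 10440, 14813 and 20400 on the knockout arrays and 19343, 14290 and 15500 on the wild type arrays. Knockout replicate 1 was the lowest and knockout replicate 3 the highest. The log2 difference was -0.15 (SE 0.26, 95% interval -0.76 to 0.46, limma adjusted p = 0.994). ILMN_2716146 and ILMN_2723763 gave log2 differences of -0.094 (SE 0.16) and -0.0071 (SE 0.26). Without knockout replicate 1, the array with squamous and smooth muscle transcripts, the 3 probes gave 0.098, 0.016 and 0.078, and without both arrays with pancreatic transcripts they gave -0.42, -0.29 and -0.40 (limma adjusted p = 1 for each). Chromogranin B lay at background: Chgb read 1084, 944 and 1149 on the knockout arrays and 1054, 1119 and 1019 on the wild type arrays, above the level of the same array only on knockout replicate 1 (limma adjusted p = 0.997). Pcsk1, the convertase that cuts prohormones in endocrine granules, was below background on all 6 arrays by both probes, at 710 to 870 in the knockout and 732 to 923 in the wild type, and was not tested.

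Histidine decarboxylase had the smallest p of the set, and its groups still overlapped. The brighter Hdc probe, ILMN_2965903, read 23835, 26210 and 29957 on the knockout arrays and 37676, 31476 and 28996 on the wild type arrays. Knockout replicates 1 and 2 were the lowest and wild type replicates 1 and 2 the highest, and only the third replicates crossed over. The means were 26667 ± 3087 in knockout and 32716 ± 4471 in wild type mucosa (SD, n = 3 each). The log2 difference was -0.29 (SE 0.15, 95% interval -0.65 to 0.068, limma adjusted p = 0.994, exact two-sided permutation p = 0.2). By this difference of mean log2 values the knockout level was 81.6% of the wild type level. The dimmer probe, ILMN_1256122, read 4073, 4950 and 6302 on the knockout arrays and 7667, 5778 and 5374 on the wild type arrays. Its log2 difference was -0.30 (SE 0.21, 95% interval -0.80 to 0.20, limma adjusted p = 0.994). After quantile normalization the 2 probes gave -0.47 and -0.47, with unadjusted p-values of 0.0133 and 0.0578 and an adjusted p of 1 for both by limma, where 1.7% of all tested probes had an unadjusted p under 0.05 (0.742% lower). Among arrays with title numbers 1 to 3 the log2 differences were -0.53 and -0.71, and among those numbered 4 to 6 they were -0.049 and 0.055. Without both arrays with pancreatic transcripts the probes gave -0.46 and -0.57 (unadjusted p = 0.0289 and 0.0297, limma adjusted p = 1 for both, with 0.283% of tested probes lower at an unadjusted p under 0.05 in that fit). The difference was smaller in size without wild type replicate 1, at -0.19 for ILMN_2965903 and -0.15 for ILMN_1256122, and without knockout replicate 1, at -0.21 and -0.15.

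Slc18a2, the granule transporter that loads histamine, read 3219, 3925 and 5310 on the knockout arrays and 4021, 3397 and 3731 on the wild type arrays. As for Sst, knockout replicates 1 and 3 were the lowest and highest of the 6 arrays. Among the knockout arrays replicate 1 was the lowest and replicate 3 the highest for Sst, Slc18a2 and every probe of Chga and Hdc. The part of the squamous and smooth muscle tissue of knockout replicate 1 in this was not tested. The log2 difference was 0.13 (SE 0.20, 95% interval -0.34 to 0.60, limma adjusted p = 0.994) and turned to -0.021 after quantile normalization. Tph1, which makes serotonin in enterochromaffin and mast cells, was dim: it read 1381, 1483 and 1145 in the knockout and 1396, 1364 and 936 in the wild type. It was above background on 2 arrays of each genotype and below it on replicate 3 of each (log2 difference 0.13, SE 0.20, limma adjusted p = 0.994).

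Mast cells also hold histidine decarboxylase, the monoamine transporter and, in mice, tryptophan hydroxylase, and their markers were read beside these genes. All 10 tested mast cell markers of 12 listed were higher in the knockout by sign (9 of 10 after quantile normalization), where 76.9% of all tested probes were higher and 51.2% after quantile normalization. Their median log2 difference was 0.49, against 0.10 over all tested probes. None passed the test over all probes. Cpa3, the mast cell carboxypeptidase, read 7871, 11031 and 6802 on the knockout arrays and 6073, 5031 and 2823 on the wild type arrays (log2 difference 0.93, SE 0.32, limma adjusted p = 0.994). Groups did not overlap for Cpa3 or for the proteases Mcpt1 (log2 1.49), Tpsb2 (0.85) and Cma1 (0.49), 4 of the 10, where 6.17% of all tested probes were higher with groups that did not overlap. The summed intensity of the 12 markers was 59608 to 78050 on the knockout and 35261 to 70258 on the wild type arrays, with Mcpt2 and Mcpt4 below background throughout. Kit, the stem cell factor receptor, which other cells of the stomach wall also carry, was the brightest of them, at 29910 to 35311 in the knockout and 19762 to 42138 in the wild type. Without Kit, left out after its values were seen, the sums of the other 11 were 29697 to 46974 in the knockout and 15500 to 28120 in the wild type and did not overlap. The list median was 0.16 without wild type replicate 3. The part of mast cells in the Hdc, Slc18a2 and Tph1 values was not tested.

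**Figure D3:**
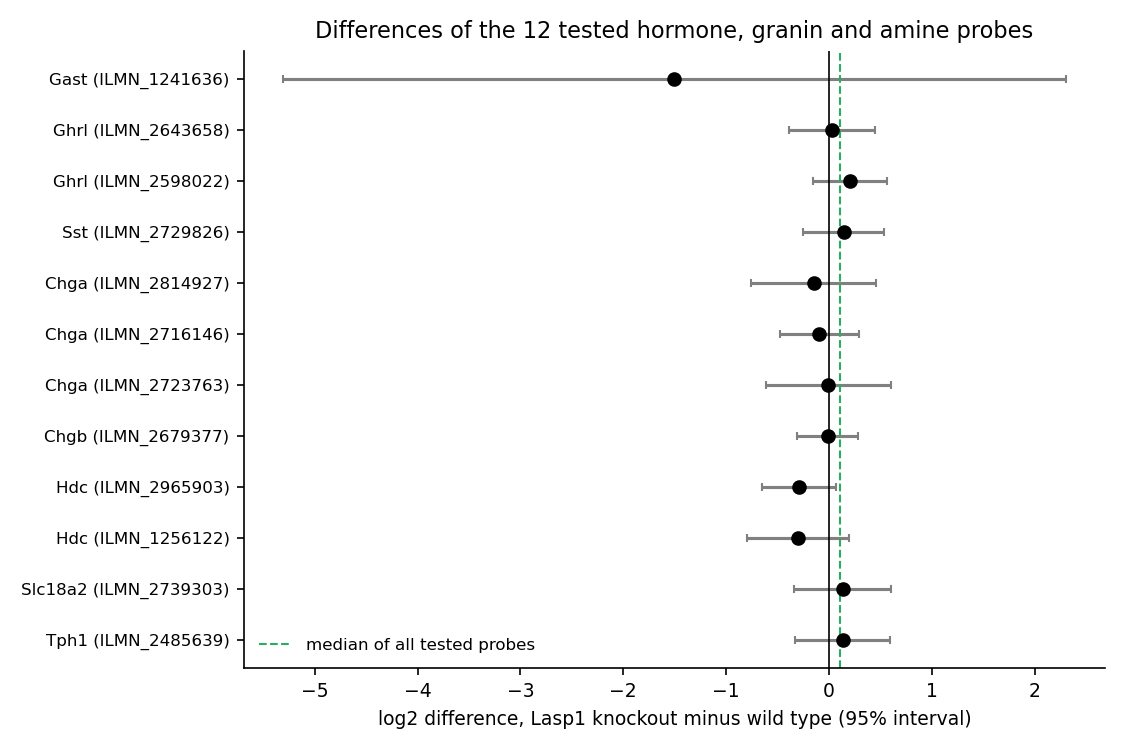
Log2 difference, Lasp1 knockout minus wild type, with its 95% interval from the limma fit, for the 12 tested probes of the set, and the median of all tested probes (dashed, 0.10). Every interval includes 0, and that of Gast runs from -5.31 to 2.30.

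Start regions are shown for the genes of the set that share a letter match near their start and, without one, for Hdc, the gene with the smallest p. The cyclic AMP response element is the classical site through which CREB acts on the somatostatin gene. Its letters TGACGTCA, the same on both strands, were searched in the 300-base RefSeq windows of GRCm38.p6 around each annotated start, and were found for Sst, Slc18a2, Chgb and Pcsk1, 4 of the 10 genes, all of which matched by symbol. Of all genes with a window, 2.03% held it. A related form, TGACGTAA, searched on both strands, was found for Chga and in 0.581% of all genes. Neither was found in the single Hdc window. The 100 bases below run 5′ to 3′ on the gene's strand, 80 before and 20 from the start on, with the match in capitals. Their positions are Sst chr16:23890825-23890924 on the minus strand, Slc18a2 chr19:59260798-59260897 on the plus strand, Chgb chr2:132781562-132781661 on the plus strand, Pcsk1 chr13:75089777-75089876 on the plus strand, Chga chr12:102554861-102554960 on the plus strand and Hdc chr2:126618659-126618758 on the minus strand.
Sst: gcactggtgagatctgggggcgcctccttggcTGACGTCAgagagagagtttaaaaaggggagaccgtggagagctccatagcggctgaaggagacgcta
Slc18a2: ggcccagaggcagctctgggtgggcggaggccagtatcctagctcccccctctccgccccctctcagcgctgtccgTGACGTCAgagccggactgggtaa
Chgb: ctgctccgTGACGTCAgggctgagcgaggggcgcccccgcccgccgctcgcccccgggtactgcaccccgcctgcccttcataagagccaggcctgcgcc
Pcsk1: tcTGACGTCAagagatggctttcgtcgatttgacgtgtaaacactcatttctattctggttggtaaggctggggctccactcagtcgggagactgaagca
Chga: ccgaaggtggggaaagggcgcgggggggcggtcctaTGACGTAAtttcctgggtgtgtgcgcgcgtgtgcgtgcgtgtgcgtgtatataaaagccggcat
Hdc: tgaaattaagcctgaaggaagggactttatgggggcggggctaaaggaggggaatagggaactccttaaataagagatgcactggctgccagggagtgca
The match begins 48 bases before the start in Sst, 4 in Slc18a2, 72 in Chgb, 78 in Pcsk1 and 44 in Chga. Genes with the match included one of the bright hormones, Sst, and both Chgb and Pcsk1, which lay at or below background on these arrays. No binding was measured, and a match is a description of the letters.

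No gene of the wider endocrine machinery passed the test either. Of 18 genes of prohormone processing and secretory granules, 14 were tested and none passed the test: 8 were higher and 6 lower in the knockout by sign, with a median log2 difference of 0.020 (6 higher after quantile normalization). Scg3, a granin-family sorting protein, had a log2 difference of 0.22 (SE 0.15), the vesicle protein synaptophysin (Syp) 0.22 (SE 0.15) and carboxypeptidase E (Cpe) 0.28 (SE 0.33). Cpe read 16048 on knockout replicate 1 and at most 9066 elsewhere. Of 9 genes that make or clear histamine and serotonin, 4 were tested and none passed, with 1 higher and 3 lower. Ddc, the decarboxylase of serotonin synthesis, differed by -0.039 and Maob, a monoamine oxidase, by -0.16. Hnmt, the histamine methyltransferase, was below background on all arrays, and it was singled out after its values were seen.

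Of 16 receptors for these signals 7 were tested and none passed, with a median of 0.047, which was -0.090 without knockout replicate 2. Cckbr, the gastrin receptor of enterochromaffin-like and parietal cells, read 5415, 6429 and 6091 on the knockout arrays and 6887, 4356 and 4094 on the wild type arrays (log2 difference 0.26, SE 0.21, limma adjusted p = 0.994). Sstr2, the somatostatin receptor of enterochromaffin-like cells, differed by -0.15 (SE 0.21). Hrh1, another histamine receptor, was below background on every array. It read 971, 951 and 950 on the knockout and 1004, 1079 and 1080 on the wild type arrays. Its groups did not overlap (log2 difference -0.14, SE 0.11, limma adjusted p = 0.994), where 1.02% of all tested probes were lower without overlap. Hrh2, the histamine receptor of parietal cells, singled out after its values were seen, differed by 0.16 (SE 0.30). Of 14 endocrine transcription factors 6 were tested and none passed, with 5 higher by sign and a median of 0.069. Neurog3, the factor of endocrine progenitors, was below background throughout, while Rfx6 and Insm1 differed by 0.13 (SE 0.15) and 0.11 (SE 0.16). Neurod1 read 1016 to 1066 on the knockout and 926 to 991 on the wild type arrays. These groups did not overlap, where 6.17% of all tested probes were higher without overlap. The log2 difference of Neurod1 was 0.11 (SE 0.11, limma adjusted p = 0.994), and it was above background only on knockout replicate 1. Of 13 other gut hormones and peptides 9 were tested and none passed, with 4 higher and a median of -0.051. Leaving out knockout replicate 3 gave a median of 0.16, and leaving out replicate 1 or replicate 3 of the wild type gave 0.23 or 0.27. Secretin (Sct) read 1629, 1653 and 1500 on the knockout arrays and 1231, 1232 and 1173 on the wild type arrays, groups that did not overlap (log2 difference 0.39, SE 0.11, unadjusted p = 0.0091, limma adjusted p = 0.994). Over all tested probes 6.17% were higher with groups that did not overlap, and 1.63% were higher at an unadjusted limma p under 0.05. Vip and Grp, peptides of enteric neurons, read 3694 and 2277 on knockout replicate 1, the array rich in smooth muscle transcripts, and at most 974 and 955 elsewhere. Of 10 enteric neuron markers with a probe, 8 were below background on every array, Uchl1 and Elavl4 among them. Stmn2, singled out after its values were seen, was above it only on knockout replicate 1 (1390). Ret, a receptor of enteric neurons, read 1155, 1318 and 1296 on the knockout and 1015, 936 and 1154 on the wild type arrays. Its log2 difference was 0.28 (SE 0.13, limma adjusted p = 0.994). Against the level of the same array, Ret was above background on all knockout arrays and below it on all wild type arrays. That level was 1020 on knockout replicate 1 and 1212 on wild type replicate 3, where Ret read 1155 and 1154.

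**Figure D4:**
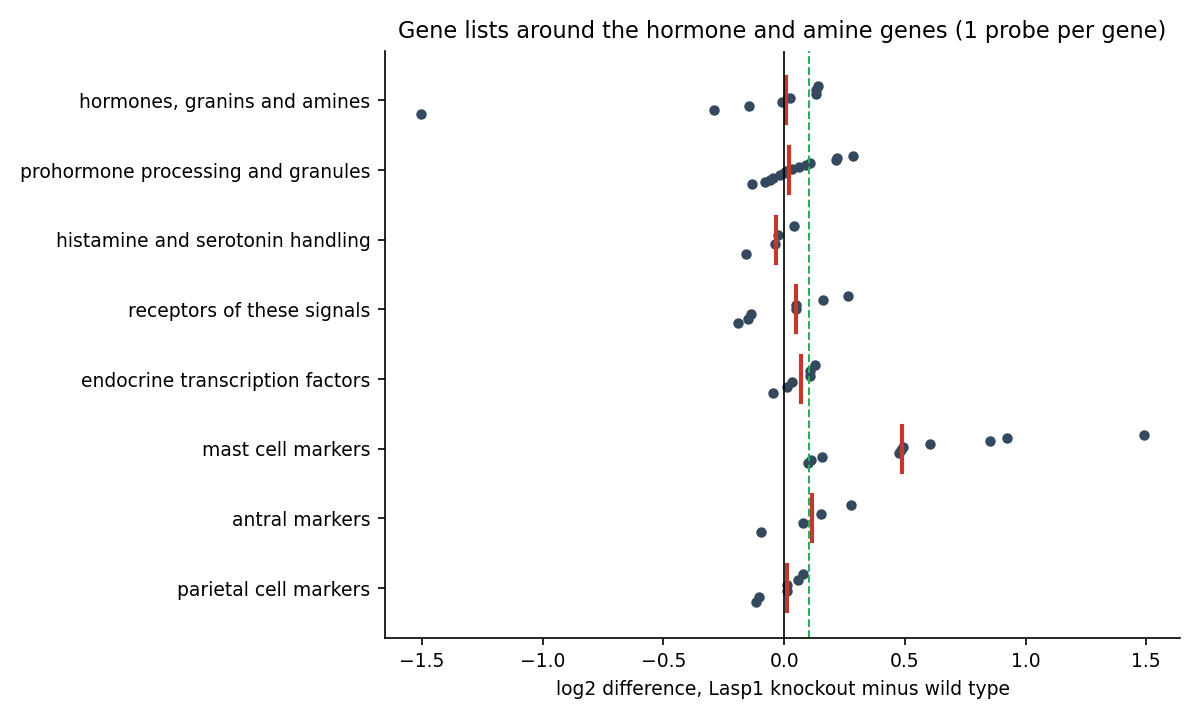
Log2 difference, Lasp1 knockout minus wild type, of each tested gene (1 probe per gene) in the hormone, granin and amine set and in 7 related lists. Red bars are list medians and the dashed line is the median of all tested probes (0.10). The mast cell list has the highest median of those drawn (0.49). The smooth muscle list, not drawn, also had a median of 0.49, which was -0.21 without knockout replicate 1.

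Genes outside these lists with the array pattern most like that of a member were sought among 11759 other tested genes by Pearson correlation of log2 values over the 6 arrays, which share their labelling and scaling. For Gast they were Mup6 (r = 0.992), a major urinary protein, Slc29a3 (r = 0.990), a nucleoside transporter, and Emilin1 (r = 0.989), an extracellular matrix protein. Mup6 read 2413, 4883 and 1215 on the knockout arrays and 8603, 6313 and 1217 on the wild type arrays. For Sst they were Ccdc28a (r = 0.989), Slc35d3 (r = 0.983) and Myh10 (r = 0.976), for Ghrl Grik5 (r = 0.980), D330050I16Rik (r = 0.973) and Spns1 (r = 0.972). For Chga they were Rnf13 (r = 0.990), Nwd1 (r = 0.990) and Ankrd13d (r = 0.978), and for Hdc Rftn1 (r = 0.959), Igf2bp3 (r = 0.957) and Taf6l (r = 0.957). With 6 arrays and this many genes, 61 genes correlated above 0.9 with Gast and 11 with Hdc, and several of those named read near background.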

How the data were processed

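Total RNA of fundic mucosa from 3 Lasp1 knockout and 3 wild type samples was amplified to biotin-labelled cRNA for Illumina arrays, per the labels. The deposited values are linear probe intensities with a median of 1000 on every array. That each array was scaled to this median is inferred from the values. The values, with none below 541.88, show no background subtraction. No label or header names the scanner software, and no scanner files were used. Undoing the scaling put the dim values on a grid of 0.05 (each within 0.02 of a grid unit), with medians of 50.75 to 64 per array.

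Log2 intensities (floor 16, reached by no probe) were fitted with limma 3.58.1 in R 4.3.3 (lmFit and eBayes, knockout minus wild type) over the 22640 of 45281 probes brighter on average than the median probe, with Benjamini-Hochberg adjustment at 0.05. The fit was tested on simulated data. Probes were named from the platform annotation: 34885 have 1 symbol, 18 have several and 10378 have none. Lists use the brightest probe of each gene. Exact permutation tests were two-sided over the 6 arrays.

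The genes of the set and the lists were chosen with earlier results of these data known. Named genes are all probes of the set, Lasp1, and the 3 closest correlates of Gast, Ghrl, Sst, Hdc and Chga. From each list, genes were named from among the up to 4 tested of smallest p and the first 2 listed. Exceptions are marked in the text. Replicate numbers were not taken as pairs. Alternatives varied the normalization, background, filter, variance model, threshold, blocks and arrays. Promoter and gene order information came from RefSeq.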

Additional observations from a re-analysis of the deposited data

How the results depend on the processing

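None of the hormone, granin and amine probes passed the threshold under any of the 16 alternatives, where limma called 2 of all tested probes in the analysis reported. That count was 0 with the replicate block, 0 without both arrays with pancreatic transcripts, 0 without both with squamous transcripts, and 0 to 3 when single arrays were left out (3 only without wild type replicate 3). Lasp1, by its brightest probe, was lower in the knockout throughout (-1.51 to -1.19 with single arrays left out). Of the recomputed log2 differences of the set 155 kept their sign and 24 turned. Part of the 155 was fixed in advance. Changing the filter or the variance model, or adding the replicate block, cannot alter a log2 difference here. The turns were as follows. Slc18a2 was -0.021 after quantile normalization and -0.018 with normexp as well. Blocking on title numbers gave 0.064 for Chga ILMN_2723763 and 0.015 for Chgb. Without the pancreatic arrays Ghrl ILMN_2643658 was -0.11 and Slc18a2 -0.056. Without the squamous arrays Ghrl ILMN_2643658 was -0.064, Chgb 0.0074, and the Chga probes 0.0057 (ILMN_2814927), 0.0022 (ILMN_2716146) and 0.084 (ILMN_2723763). Leaving out single arrays gave -0.094 to 0.20 for Ghrl ILMN_2643658, -0.0037 to 0.28 for Sst, -0.061 to 0.30 for Slc18a2, -0.055 to 0.24 for Tph1 and -0.072 to 0.070 for Chgb. The same ranges for Chga were -0.39 to 0.098 (ILMN_2814927), -0.23 to 0.016 (ILMN_2716146) and -0.23 to 0.21 (ILMN_2723763). Several of these ranges are as wide as the Hdc difference, and the cause of each turn was not tested. The Hdc probes ranged from -0.38 to -0.19 (ILMN_2965903) and -0.47 to -0.15 (ILMN_1256122). Of the list medians, 7 moved beyond their spread: other gut hormones with title numbers as a block (0.075), without the pancreatic arrays (0.16) and without 3 single arrays (0.16 to 0.27), histamine and serotonin handling without the pancreatic arrays (-0.35), and receptors without knockout replicate 2 (-0.090). Gast kept its sign in these alternatives (-3.12 to -0.31 with single arrays left out, -0.66 with title numbers as a block). Same-numbered knockout and wild type samples had correlated deviations of 0.045, -0.30 and 0.53. Replicate 3 of each genotype was the closest match of the other, while replicates 1 and 2 matched crosswise. With 3 arrays a genotype these values cannot settle whether the numbers pair the samples. With the replicate block Gast had an unadjusted p of 0.0221 (limma adjusted p = 0.863). In that fit 753 of the 22640 tested probes had an unadjusted p under 0.05. Cck, Pcsk1 and Chgb lay at background, where a difference between genotypes was not detectable.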

Other observations

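Galanin, a neuropeptide also made by endocrine and nerve cells, stood out among the other gut peptides on a single array. Gal read 119530 on wild type replicate 3, the array with the most pancreatic transcripts, against 831 to 1722 on the knockout arrays and 759 and 838 on wild type replicates 1 and 2. It was singled out after its values were seen.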
